A study of Mus musculus with 16 samples.

Results

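The genes described here are the nuclear-encoded subunits of the oxidative phosphorylation system, measured by RNA sequencing in mouse bone-marrow-derived macrophages. They were taken by gene symbol from the protein-coding genes of the deposited count table (the Nduf, Sdh, Uqcr, Cyc1, Cox and Atp5 series), provided that the mean count over the 16 libraries was at least 10. Of 54532 genes in the table, 78 met both conditions, and they fell into 36 genes of complex I, 4 of complex II, 9 of complex III, 12 of complex IV and 17 of complex V. A total of 84 protein-coding genes had a matching symbol. The 6 that were left out had mean counts of 0 (Cox7b2, Cox8c and a second Atp5o gene), 0.438 (Ndufa4l2), 0.5 (Cox8b) and 9.88 (Cox6b2, just below the minimum). The member just above the minimum was Cox6a2, with a mean count of 18.9. The mean count thus chose the members, and that they are expressed is not a result. Cox4i1, Cox4i2 and Ndufab1 are subunits as well, but their symbols lie outside the rule.

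Oxidative phosphorylation takes place in the inner mitochondrial membrane. Complex I accepts electrons from NADH and complex II from succinate; complex III passes them through cytochrome c to complex IV, which reduces oxygen, and the proton gradient built on the way drives ATP synthesis by complex V. Complex II is made from nuclear genes alone, whereas the other complexes also hold subunits made inside the mitochondrion from its own genome, the mt- genes. In macrophages, the balance between this pathway and glycolysis is known to shift with activation.

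The macrophages came from tibial marrow of wild-type C57BL/6 mice aged 2 to 3 months, and were grown for 24 h with 12 ng/ml and then for 48 h with 120 ng/ml of the growth factor CSF-1 in 15% serum. They were then passaged, grown to confluence and given an antibody for 24 h, and RNA selected for poly(A) tails was sequenced. All groups share this preparation and differ in the dish and the antibody. The groups, of 4 libraries each, were anti-ITGAV on fibronectin, IgG on fibronectin, anti-ITGAV on uncoated dishes and IgG on uncoated dishes. Fibronectin (10 µg/ml) is a matrix protein bound by integrins, anti-ITGAV (10 µg/ml) neutralizes the αV integrin subunit, and IgG is the control antibody. No label says that the 4 libraries of a group come from separate mice or cultures, so the p-values below measure only the spread between these libraries. No gene was deleted in any group, and the antibody acts on the protein, so the counts hold no check of the treatment.

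Total counts ranged from 27995035 to 43413650 per library, and 15469 genes passed the low-count filter, among them all 78 members and 12 of the 13 mt- protein genes (mt-Atp8, with a mean count of 5.13, did not). CPM is a count scaled by the library total, which is the plain total for the markers in this paragraph and the effective total elsewhere. The median level of 10 macrophage markers was 1100 CPM and that of 10 neutrophil markers 17.2 CPM, and T cell, NK cell and erythroid markers were near 0. The summed neutrophil markers lay at 212 to 358 CPM in anti-ITGAV on fibronectin and 329 to 420 CPM in IgG on fibronectin. On uncoated dishes they lay at 310 to 361 CPM with anti-ITGAV and 428 to 455 CPM with IgG. For the antibody on fibronectin, 2 of the 10 were called lower, where edgeR called 2 of all 15469 genes (0.0129%). For fibronectin under anti-ITGAV, 5 of the 10 were called lower, where 5.66% of all genes were called in either direction. Without the third anti-ITGAV fibronectin library, described below, the counts were 5 and 7. The share of all genes called without that library is not set beside them here. Summed markers of mast cells and basophils were at 9.78 to 12.0, 14.4 to 19.1, 19.5 to 26.3 and 27.1 to 34.2 CPM in the same order of groups. Summed markers of B lymphocytes (29.9 to 36.2, 30.9 to 43.7, 69.6 to 79.0 and 60.6 to 78.1 CPM), fibroblasts (4.83 to 7.97, 7.39 to 8.31, 10.4 to 12.3 and 12.1 to 14.9 CPM) and megakaryocytes and platelets (445 to 475, 398 to 494, 613 to 697 and 552 to 642 CPM) were also lower on fibronectin, in that order of groups. The B lymphocyte sum rested mainly on Ighm (mean 50.1 CPM, list median 0.494 CPM). The platelet sum rested mainly on Pf4 (mean 524 CPM, list median 4.15 CPM). Of the fibroblast markers Col1a1 was highest, at 5.31 CPM. In the B lymphocyte and fibroblast lists, 3 of 5 markers each were under 1 CPM. Whether such cells were present was not tested. The part of these cells in the results below was not tested. In these bulk samples, fewer cells of a type and less RNA per cell cannot be told apart. Library 3 of anti-ITGAV on fibronectin stood apart. In it the mt- protein genes made up 3.46% of the total, where the remaining 15 libraries had 1.24% to 1.53%. Across all genes its deviation from the mean fell with the GC content of the transcript (Spearman rho -0.70; the others ranged from -0.30 to 0.55). Values without it are given beside the main results that rest on it.

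Together the members took 0.649% to 0.800% of all counts in a library. For the median member the highest of the 16 libraries was 1.64 times the lowest, with a range over members of 1.22 to 5.74 times. Complex V held 42.6% of the members' counts, complex I 23.4%, complex IV 14.1%, complex II 10.1% and complex III 9.79%. Per length, on the deposited FPKM scale, the median member of complex II stood at 65.1, of complex IV at 63.3, of complex V at 45.3, of complex III at 44.7 and of complex I at 25.2. The ranges of the 5 complexes overlapped.

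**Figure D1:**
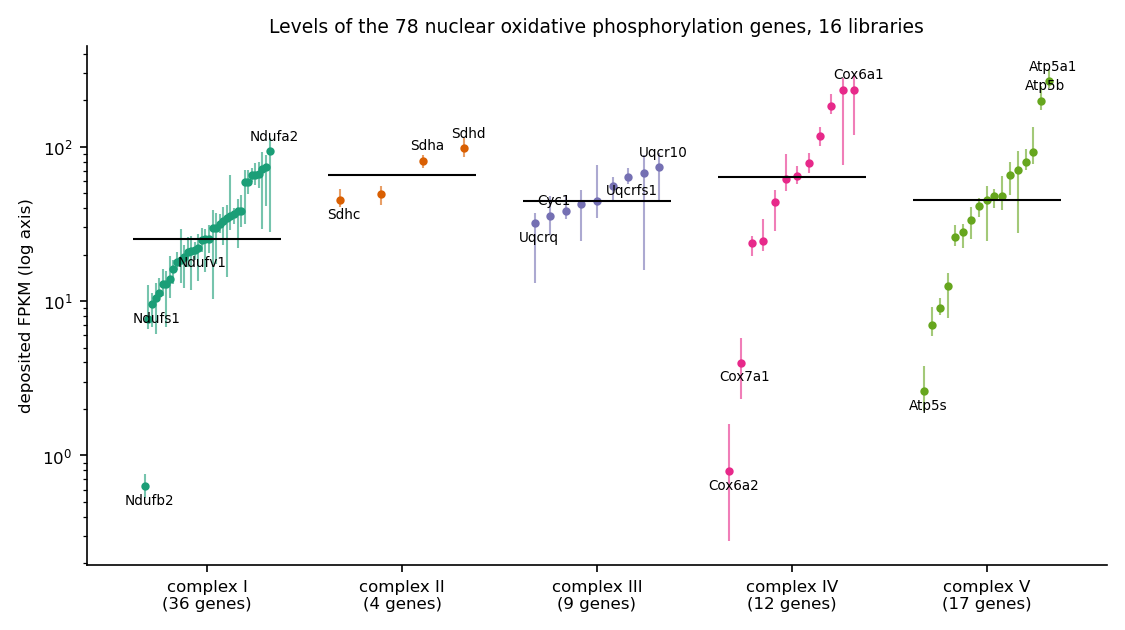
Level of each of the 78 nuclear-encoded subunits in deposited FPKM (log axis), grouped by complex and ordered by level. Points are means over 16 libraries, vertical lines the lowest and highest library, and horizontal bars the median of the complex, from 25.2 in complex I to 65.1 in complex II.

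Among the catalytic subunits, Atp5a1 and Atp5b, the α and β subunits that form the ATP-making head of complex V, averaged 266 and 199 FPKM. Sdha, the flavoprotein of complex II that oxidizes succinate, averaged 81.2 FPKM, and its iron-sulfur partner Sdhb 49.1 FPKM. The membrane anchors of the same complex were Sdhd at 97.6 and Sdhc at 45.2 FPKM. In complex III the Rieske iron-sulfur protein Uqcrfs1 averaged 63.8 and cytochrome c1 (Cyc1) 35.6 FPKM, between the small subunits Uqcr10 at 73.7 and Uqcrq at 31.8 FPKM. In complex I, Ndufv1, which binds NADH, averaged 22.0 FPKM and the iron-sulfur subunit Ndufs1 9.52 FPKM, below the accessory subunit Ndufa2 at 93.5 FPKM. Ndufb2, another accessory subunit, was the lowest member at 0.636 FPKM.

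The deposited lengths bear on these orders. For 13 members the deposited length was over 3 times that of the principal transcript, and the levels on the 2 lengths had a Spearman correlation of 0.78 across the 78 members. On the principal length Ndufs1 would stand at 29.3 and Ndufb2 at 1.48, on which Ndufb2 was the second lowest of the 78, above Cox6a2. Atp5b would stand at 440, above Atp5a1 at 337, and Cyc1 at 50.5, below Uqcrq at 60.5. Uqcrh at 125 would lead complex III, and Ndufa4 at 153 complex I, ahead of Ndufa2 at 93.5. The order of the complex medians would change as well. The median member of complex V would be Atp5h at 110, above Sdhd at 97.6 and Sdhb at 96.2, the middle members of complex II. Counting strand is not given in the sources used here, and 11 members are overlapped by a gene on the opposite strand with at least 10% of their count, among them Ndufa2 (by Tmco6), Ndufs1 (by Eef1b2), Ndufs6 (by Mrpl36) and Ndufb2 (by Braf). The shared stretch was longest for Cox6c (5344 bases), Atp5j (701 bases) and Ndufb5 (616 bases), and was 4 to 256 bases for the other 8. Reads within the shared bases may not be told apart.

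Where a subunit has tissue isoforms, the form known from most tissues was the abundant one in these macrophages. Cox6a1 averaged 233 FPKM against 0.788 FPKM for Cox6a2, the isoform of heart and skeletal muscle. Cox7a2 averaged 78.7 FPKM against 3.99 FPKM for its muscle counterpart Cox7a1, and the related Cox7a2l, which takes part in joining complexes III and IV, averaged 117 FPKM. Cox8a averaged 232 FPKM, while the muscle isoform Cox8b was at 0.0344 FPKM and the testis isoform Cox8c was listed at 0. Cox6b1 stood at 185 FPKM and the testis isoform Cox6b2 at 0.251 FPKM. Of Cox4i1 and Cox4i2, the isoforms of a nuclear complex IV subunit that the symbol rule leaves out, the first averaged 170 and the second 0.933 FPKM.

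The membrane ring of complex V is built from one protein that 3 genes encode with different import sequences. Atp5g3 averaged 79.6, Atp5g2 65.1 and Atp5g1 12.4 FPKM. Ndufa4, a subunit named for complex I and since assigned to complex IV, averaged 59.0 FPKM, and its relative Ndufa4l2, which is induced by hypoxia in other cells, 0.0127 FPKM. Atp5s, known as coupling factor B, had the lowest level of its complex at 2.62 FPKM.

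The promoters of 63 members (68 windows of 300 bases, from 250 before to 50 after a RefSeq start on GRCm38.p6) were searched on both strands for motifs of factors known for mitochondrial genes; the other 15 members are not in the table. The NRF1 motif GCGCANGCG was present in 30.9% of the members' windows, against 6.25% of the 32851 windows of all genes. The ETS motif CCGGAAG, which GABP binds, was present in 23.5% against 8.86%, the YY1 motif AAGATGGC in 13.2% against 2.75%, and the ERR motif AAGGTCA in 11.8% against 4.72%. YY1 motifs lay in 7 of 34 complex I windows and 2 of 16 complex V windows and in 0 of the 18 others, while NRF1 motifs were found in all 5 complexes. Over all windows of all genes, matches of different motifs shared bases 2 times for NRF1 with YY1, 2 times for ETS with NRF1, 1 time for ETS with YY1 and 3 times for ERR with ETS. A match describes letters only. The windows of all genes were taken whether or not the gene was expressed here, whereas the members had to pass a minimum count. A background of expressed genes alone was not compared. Windows are credited to RefSeq. The windows below, 5′ to 3′ on the strand of the gene from 250 bases before to 30 after the start, are those of Atp5k and Ndufs6, with the smallest p-values for the antibody on fibronectin, of Uqcr11, with the lowest change there, and of Cox6a1 and Cox7a1, a widespread and a muscle isoform of complex IV subunits. Capitals mark motif matches. Atp5k (chr5:108434370-108434649, minus strand) holds overlapping NRF1 matches, an ETS match and an ERR match. Ndufs6 (chr13:73328453-73328732, minus) and Uqcr11 (chr10:80406792-80407071, minus) each hold an NRF1 match, Uqcr11 with an ETS match too. The searched window of Ndufs6 also holds a YY1 match, which the printed bases do not contain because they end 30 after the start. Cox6a1 (chr5:115348929-115349208, minus) holds NRF1 and ETS matches, and Cox7a1 (chr7:30183921-30184200, plus) holds no match in this window.
Atp5k: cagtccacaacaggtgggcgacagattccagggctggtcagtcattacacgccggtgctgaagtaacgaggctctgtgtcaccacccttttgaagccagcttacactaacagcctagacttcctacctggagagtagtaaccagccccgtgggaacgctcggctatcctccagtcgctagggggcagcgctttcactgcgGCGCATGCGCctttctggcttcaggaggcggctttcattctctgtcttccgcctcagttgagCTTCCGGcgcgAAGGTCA
Ndufs6: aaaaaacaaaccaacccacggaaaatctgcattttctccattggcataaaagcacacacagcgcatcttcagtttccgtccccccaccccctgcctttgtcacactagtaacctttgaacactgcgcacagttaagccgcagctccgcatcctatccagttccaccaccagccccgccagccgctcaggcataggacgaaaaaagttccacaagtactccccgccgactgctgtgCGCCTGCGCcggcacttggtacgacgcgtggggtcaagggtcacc
Uqcr11: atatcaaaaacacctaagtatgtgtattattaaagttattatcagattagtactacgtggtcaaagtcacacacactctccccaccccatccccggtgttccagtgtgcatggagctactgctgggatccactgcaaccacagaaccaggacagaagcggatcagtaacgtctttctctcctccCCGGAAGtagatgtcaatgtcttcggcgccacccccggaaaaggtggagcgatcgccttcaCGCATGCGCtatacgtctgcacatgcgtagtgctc
Cox6a1: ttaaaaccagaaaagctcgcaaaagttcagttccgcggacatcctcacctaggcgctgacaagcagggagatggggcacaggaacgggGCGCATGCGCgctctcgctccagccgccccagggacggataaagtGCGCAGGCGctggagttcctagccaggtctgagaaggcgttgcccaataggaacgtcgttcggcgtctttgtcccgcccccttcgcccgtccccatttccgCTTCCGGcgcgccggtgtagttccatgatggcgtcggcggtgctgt
Cox7a1: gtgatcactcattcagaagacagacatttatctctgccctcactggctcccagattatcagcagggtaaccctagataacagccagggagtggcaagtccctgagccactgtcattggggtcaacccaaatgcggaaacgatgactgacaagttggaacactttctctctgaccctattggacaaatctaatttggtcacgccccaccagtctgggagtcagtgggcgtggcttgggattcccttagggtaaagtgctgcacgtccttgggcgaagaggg

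On fibronectin, no subunit passed the test between anti-ITGAV and IgG, and most values were slightly lower with anti-ITGAV. The median log2 change of the members was -0.095, from -0.49 (Uqcr11) to 0.29 (Ndufv2), with 23 members above 0, and the median of all genes tested was 0.000. By edgeR's quasi-likelihood test with Benjamini-Hochberg adjustment over all genes, 0 members were called at an adjusted p of 0.05, where 0.0129% of all genes were, and DESeq2 also called 0 members, against 0.0728% of all genes. At an unadjusted p under 0.05, 0 members were higher and 6 lower, or 6 of 78 against 4.65% of all genes in either direction.

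The 6 were Atp5k, subunit e of the complex V membrane part, and the complex I accessory subunits Ndufs6, Ndufa3, Ndufb3, Ndufa1 and Ndufb7, which are named here after their values were seen. Atp5k (chr5:108433244-108434448) had 17.9, 17.9, 15.6 and 19.5 CPM with anti-ITGAV on fibronectin, and 24.7, 22.6, 22.3 and 18.3 CPM with IgG on fibronectin. One IgG library lay among the anti-ITGAV values. The log2 change was -0.31 ± 0.12 (SE, n = 4 each; edgeR unadjusted p = 0.0161, adjusted p = 0.721) and -0.26 without library 3. Ndufs6 (chr13:73319838-73328542), a small subunit near the iron-sulfur chain of complex I, had 21.3, 21.7, 18.3 and 20.9 CPM with anti-ITGAV and 23.4, 28.4, 25.0 and 22.8 CPM with IgG. The log2 change of -0.28 ± 0.11 (edgeR adjusted p = 0.721) was -0.23 without library 3. Ndufb3 had 17.5 to 25.4 CPM under anti-ITGAV and 25.6 to 28.1 CPM under IgG, and its log2 change of -0.26 was -0.15 without library 3. Those of Ndufa3, Ndufa1 and Ndufb7, -0.32 each, were -0.18, -0.17 and -0.16 without it.

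At both ends of this comparison the values rested on library 3. Uqcr11 (chr10:80402997-80406830), a small complex III subunit, had 42.7, 48.4, 10.3 and 38.5 CPM with anti-ITGAV and 46.9, 57.1, 47.4 and 44.6 CPM with IgG on fibronectin. Ndufa2 (chr18:36742332-36744557) had 51.73, 55.66, 16.04 and 50.77 CPM with anti-ITGAV and 61.02, 66.02, 64.91 and 50.97 CPM with IgG. In both genes the third anti-ITGAV library was far below the rest, and the log2 changes of -0.49 and -0.48 were -0.18 and -0.20 without it. Ndufv2 (chr17:66078638-66101559), an iron-sulfur subunit of complex I, was high in the same library, with 70.3, 73.3, 141 and 74.4 CPM under anti-ITGAV and 72.6, 84.6, 73.4 and 63.0 CPM under IgG. Uqcrb, the ubiquinone-binding subunit of complex III, had 38.08, 37.97, 67.28 and 34.85 CPM under anti-ITGAV and 43.50, 31.85, 37.24 and 39.18 CPM under IgG. In these genes it was the anti-ITGAV library 3 that stood above all others. Without library 3 the log2 change of Ndufv2 was -0.01 in place of 0.29, and that of Uqcrb -0.04 in place of 0.23.

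By complex, the median log2 change was -0.161 in complex I, -0.025 in complex II, -0.190 in complex III, -0.075 in complex IV and -0.077 in complex V. Without library 3 the complexes lay closer together, at -0.077, -0.022, -0.052, -0.084 and -0.075 in the same order, and the median of all members was -0.074 with 11 above 0 and 0 called. With all libraries, the 95% interval of the change lay within a 1.5-fold rise or fall for 58 members; without library 3 it did so for 77. Of the catalytic subunits, Atp5b had a log2 change of -0.07 ± 0.10, Sdha of -0.06 ± 0.07, Sdhb of 0.04 ± 0.09 and Ndufv1 of -0.23 ± 0.14, the last at -0.08 without library 3.

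On uncoated dishes, too, no member passed the test between anti-ITGAV and IgG. The median log2 change was 0.041, with 56 of 78 members above 0, against 0.014 over all genes. EdgeR called 0 members (0.0129% of all genes) and DESeq2 0 (0.127% of all genes), and at an unadjusted p under 0.05 there were 0 members, where 3.04% of all genes passed. The 95% interval lay within 1.5-fold for 73 members. The complexes had medians between 0.02 (complex V) and 0.05 (complex II). Cox6a2, close to the count minimum, had the lowest change, -0.62 ± 0.57, and Atp5s was next at -0.30 ± 0.17 (edgeR adjusted p = 0.988 each).

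The highest change on uncoated dishes belonged to Ndufa12, an accessory subunit of complex I, at 0.34 ± 0.17 (SE, n = 4 each; edgeR adjusted p = 0.988). It had 21.3, 31.1, 18.9 and 26.1 CPM with anti-ITGAV and 16.5, 18.4, 19.6 and 22.3 CPM with IgG. These counts are uncertain, because the processed pseudogene Gm15920 on chromosome 5 is 99.5% identical to Ndufa12 over 402 bases and itself had a mean count of 853, against 768 for Ndufa12 (chr10:94198720-94221443). Gm15920 had 28.8, 10.5, 30.9 and 16.1 CPM with anti-ITGAV and 24.1, 28.7, 26.7 and 28.4 CPM with IgG on uncoated dishes. The 2 libraries high for the gene were low for its copy. Over all 16 libraries the highest value was 1.89 times the lowest for Ndufa12, 2.95 times for Gm15920 and 1.31 times for their sum. Such a copy, at least 97% identical over 200 bases, was found in the table for 14 members, and for 7 its own count was at least 10% of the member's. The other 6 were Atp5l (40.5%), Atp5g1 (33.2%), Atp5h (18.2%), Atp5o (17.4%), Uqcrb (14.3%) and Cox5b (11.7%).

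Fibronectin changed many genes in these macrophages, and no member of the respiratory chain was called among them. Under anti-ITGAV, 439 genes rose and 437 fell on fibronectin relative to uncoated dishes, which is 5.66% of the genes tested, and 0 of the 78 members were among them. DESeq2 called 0 members and 11.2% of all genes. The median log2 change of the members was -0.115, from -0.47 to 0.29, with 19 above 0, against a median of 0.008 over all genes. At an unadjusted p under 0.05, 0 members were higher and 7 lower, in all 7 of 78, where 22.1% of all genes passed in either direction.

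Atp5k again led this list, with 17.9, 17.9, 15.6 and 19.5 CPM on fibronectin and 23.8, 21.9, 23.6 and 19.2 CPM on uncoated dishes under anti-ITGAV. The groups met at 1 library each. Its log2 change was -0.32 ± 0.12 (SE, n = 4 each; edgeR adjusted p = 0.122), the smallest adjusted p of any member in the 5 comparisons, and -0.26 without library 3 (adjusted p = 0.214). Ndufa3 (-0.37), Ndufa7 (-0.31), Ndufb7 (-0.33), Ndufa1 (-0.34), Atp5g2 (-0.28) and Atp5j2 (-0.21) made up the rest, all of them accessory or membrane subunits. Without library 3 their log2 changes were -0.23, -0.17, -0.17, -0.19, -0.20 and -0.14 in the same order. Ndufb7 (chr8:83566671-83571626) had 47.7, 49.4, 27.7 and 43.4 CPM on fibronectin and 52.8, 53.5, 53.0 and 51.5 CPM on uncoated dishes under anti-ITGAV. The log2 change of Ndufb7 was -0.33 ± 0.15 (edgeR adjusted p = 0.199), or -0.17 without library 3. Cox7a1, the muscle isoform of a small complex IV subunit, had the lowest change, -0.47 ± 0.22, or -0.33 without library 3. The antibody-on-fibronectin and the fibronectin-under-anti-ITGAV comparisons share the anti-ITGAV fibronectin libraries, so their values are not independent.

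The complex medians under anti-ITGAV were -0.171 in complex I, -0.076 in complex II, -0.056 in complex III, -0.162 in complex IV and -0.062 in complex V, and without library 3 they were -0.098, -0.086, -0.037, -0.129 and -0.070 in that order. Without it the median of all members was -0.092, with 12 above 0 and 0 called, and the 95% interval lay within 1.5-fold for 76 members rather than 60. All 4 complex II genes had negative values, from -0.15 (Sdha) to -0.02 (Sdhc), and 0 of them were called.

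Under IgG, members lay on both sides of 0 on fibronectin, and none was called. The median log2 change was 0.018, from -0.48 to 0.30, with 44 of 78 above 0, against 0.002 over all genes. EdgeR called 0 members where it called 3.79% of all genes (367 higher and 219 lower), and DESeq2 called 0 members and 7.33% of all genes. At an unadjusted p under 0.05, 1 member was higher and 2 were lower, where 15.2% of all genes passed. The 95% interval of the change lay within 1.5-fold for 71 members.

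The higher member was Cyc1 (chr15:76343523-76346260), the cytochrome c1 subunit that hands electrons from complex III to cytochrome c. It had 77.09, 104.09, 95.96 and 78.05 CPM on fibronectin and 66.48, 71.77, 73.47 and 79.29 CPM on uncoated dishes under IgG. Of the 4 fibronectin libraries, 2 lay above the highest uncoated library, and the other 2 within the uncoated range. The log2 change was 0.29 ± 0.13 (SE, n = 4 each; edgeR adjusted p = 0.285). Cyc1 was the only member called under any setting tried, in the fit that combined a GC trend with leaving out library 3 (log2 change 0.21, edgeR adjusted p = 0.0366), a setting chosen after the data were seen. Under anti-ITGAV, Cyc1 had 75, 77.44, 57.48 and 89.27 CPM on fibronectin and 84.98, 71.52, 75.15 and 69.22 CPM on uncoated dishes, a log2 change of -0.01 ± 0.13. The fibronectin libraries lay on both sides of the uncoated ones.

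The lower members were Cox7a1, the muscle isoform, and Atp5s, coupling factor B. Cox7a1 (chr7:30184144-30186078) had 1.62, 2.39, 1.69 and 1.77 CPM on fibronectin and 2.79, 1.97, 3.11 and 2.55 CPM on uncoated dishes under IgG, so 3 of the 4 fibronectin libraries lay below every uncoated library. Its log2 change was -0.48 ± 0.22 (edgeR adjusted p = 0.318), close to the -0.47 ± 0.22 under anti-ITGAV, where it had 1.55, 2.48, 1.24 and 1.77 CPM on fibronectin and 2.50, 2.73, 2.28 and 2.25 CPM on uncoated dishes. Neither change was called. Atp5s had 4.72, 4.00, 5.02 and 5.67 CPM on fibronectin and 7.24, 5.42, 7.80 and 4.84 CPM on uncoated dishes under IgG, with a log2 change of -0.38 ± 0.17 (edgeR adjusted p = 0.278). Under anti-ITGAV its change was 0.06 ± 0.17.

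**Figure D2:**
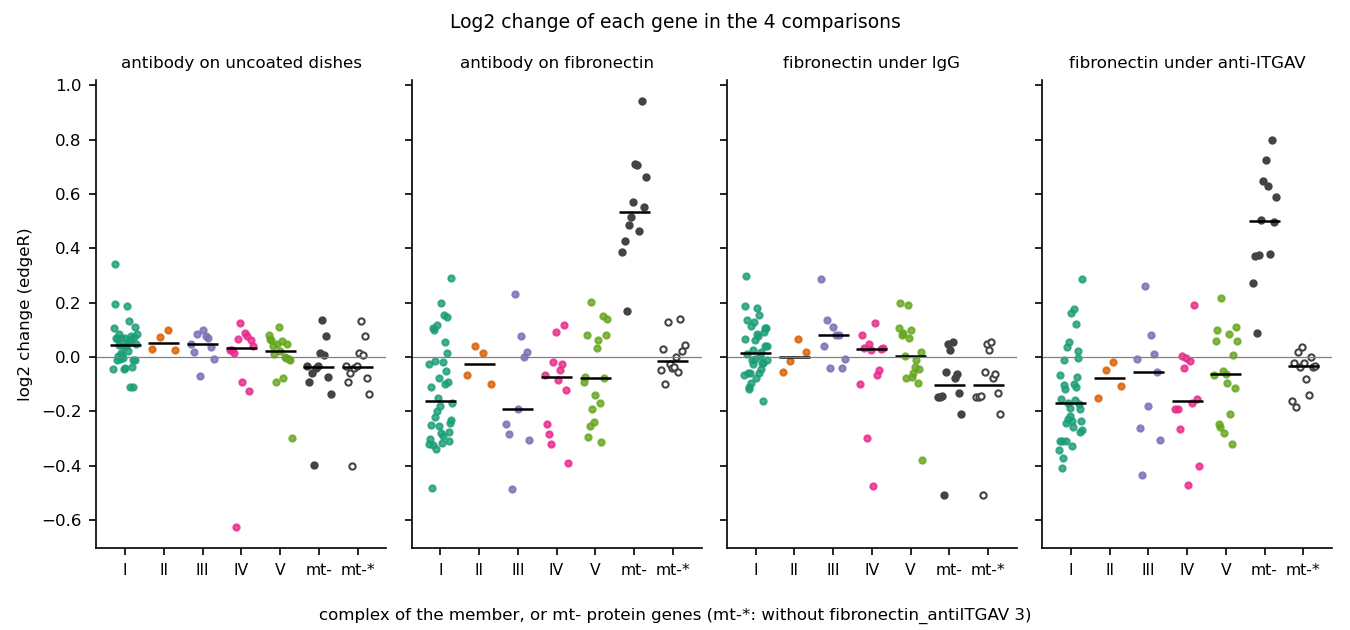
Log2 change (edgeR) of each member by complex and of the mt- protein genes in the 4 comparisons of 2 groups; each point is a gene and each bar a median. Open points (mt-*) are the mt- genes refitted without library 3 of anti-ITGAV on fibronectin, whose median was -0.01 in place of 0.53 for the antibody on fibronectin.

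The coating by antibody interaction asks whether the antibody acted differently on the 2 surfaces. EdgeR called 0 members and 0.0% of all genes, and DESeq2 called 0 members and 0.00345% of all genes. At an unadjusted p under 0.05 there were 3 members, all negative, where 3.97% of all genes passed: Ndufb7 (-0.51 ± 0.21), Ndufa11 (-0.50 ± 0.23) and Atp5g2 (-0.35 ± 0.17), with an edgeR adjusted p of 0.646 each. Without library 3 their values were -0.35, -0.33 and -0.27 (edgeR adjusted p = 0.845 each). The median of the members was -0.141, with 19 above 0, and -0.110 with 13 above 0 without library 3. The median of all genes was -0.019. With an SE of 0.173 for the median member, the 95% interval of the interaction lay within 1.5-fold for 40 members, and without library 3 for 68.

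The mitochondrial genome's own subunits were set beside the nuclear ones. Counts of the mt- protein genes were 2.76 ± 1.71 times those of the members in anti-ITGAV on fibronectin, 1.83 ± 0.255 times in IgG on fibronectin, 1.88 ± 0.204 times in anti-ITGAV on uncoated dishes and 2.02 ± 0.182 times in IgG on uncoated dishes (SD, n = 4 each). The large SD of the first group came from library 3, with a ratio of 5.32, while the other 15 libraries lay between 1.55 and 2.17. The mt- share was 1.86% ± 1.06, 1.32% ± 0.0787, 1.35% ± 0.0739 and 1.43% ± 0.0813 in the same order of groups. The members' own share was 0.687% ± 0.0275, 0.729% ± 0.0591, 0.724% ± 0.0434 and 0.709% ± 0.0362 of counts, again in that order. For the 2 shares and the ratio in the 4 comparisons, two-sided exact permutation tests over libraries gave adjusted p-values of 0.588 to 0.714 over the 12 tests, where the smallest raw p that 4 against 4 allows is 0.0286. Without library 3, anti-ITGAV on fibronectin had a member share of 0.699% ± 0.0140, an mt- share of 1.33% ± 0.0510 and a ratio of 1.90 ± 0.0785 (SD, n = 3), and the adjusted p-values were 0.789 to 0.971. No quantity passed either way.

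**Figure D3:**
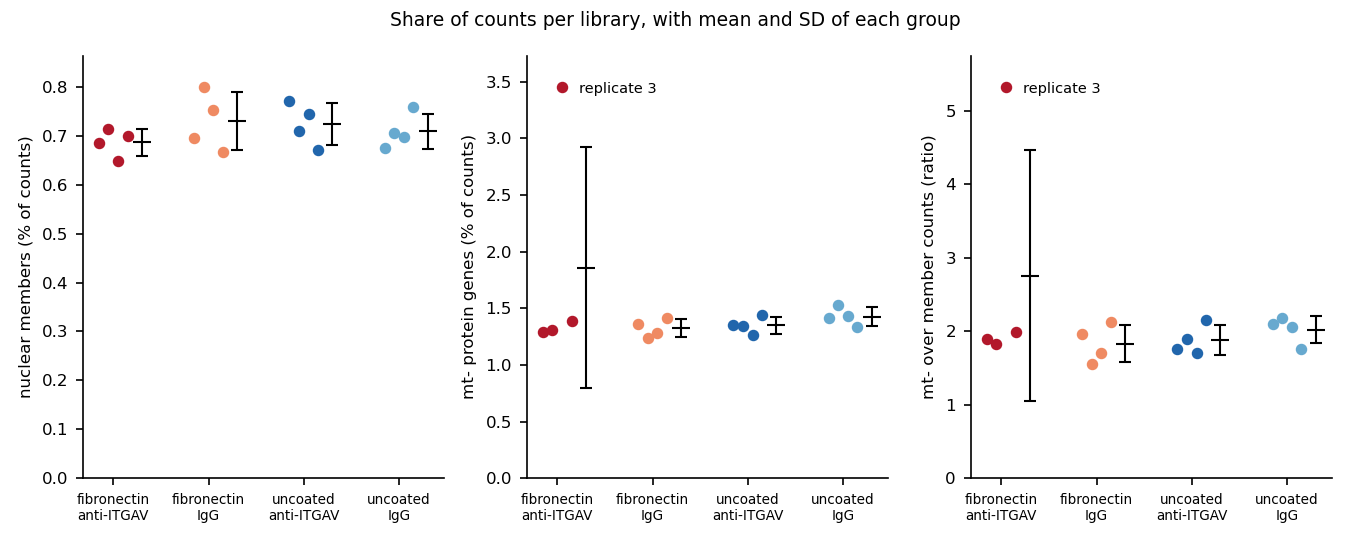
Counts of the 78 nuclear members and of the 13 mt- protein genes as a percent of each library's total, and their ratio, per library, with the mean and SD of each group beside the points. Replicate 3 of anti-ITGAV on fibronectin stands at 3.46% mt- counts and a ratio of 5.32, above the other 15 libraries.

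Single mt- genes show how far that library departs. Mt-Co1, the catalytic subunit of complex IV, had 6346, 6231, 14249 and 6342 CPM in anti-ITGAV on fibronectin, 6398, 5787, 5929 and 6579 CPM in IgG on fibronectin, 6127, 6583, 6017 and 6923 CPM in anti-ITGAV on uncoated dishes, and 6866, 7447, 6666 and 6332 CPM in IgG on uncoated dishes. Apart from library 3 the groups overlapped. The library exceeded the median of the other 15 by 1.64-fold in mt-Co2 at the least and by 4.13-fold in mt-Nd4l, a complex I subunit, at the most. For the antibody on fibronectin the median log2 change of the 12 mt- genes tested was 0.535, and -0.013 without library 3; for fibronectin under anti-ITGAV it was 0.499, and -0.034 without it. On uncoated dishes the antibody gave a median of -0.036, and fibronectin under IgG gave -0.104. EdgeR called 0 of the 12 in each comparison with all libraries. At an unadjusted p under 0.05 there were 7 for the antibody on fibronectin, where 4.65% of all genes passed. That comparison includes library 3, which was the highest of the 16 for all 12 mt- genes. Without library 3, which is in neither group but adds to the common spread, mt-Co3 passed for fibronectin under IgG, with a log2 change of -0.51 (edgeR adjusted p = 0.0236, and 0.269 with all libraries). Counts of mt-Atp6, mt-Co3, mt-Nd4l, mt-Co2 and mt-Nd3 are uncertain, because near-identical nuclear copies had counts of their own equal to 146%, 86.2%, 76.7%, 76.4% and 27.4% of those of the mt- gene.

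Library 3 was thus high in the mitochondrial genes and uneven in the nuclear ones. Its value was the lowest of 16 for 35 members (44.9%) and the highest for 15 (19.2%), where it was the lowest for 27.0% and the highest for 23.4% of all genes tested. The members' median deviation from their own mean over 16 libraries was -0.081 on the log2 scale, with quartiles of -0.736 and 0.108, while that of the mt- genes was 1.36. The members furthest below were Uqcr11 (-2.02), Ndufa2 (-1.70), Cox8a (-1.58), Ndufs7 (-1.50) and Atp5d (-1.34); those furthest above were Ndufv2 (0.90), Uqcrb (0.79), Ndufb5 (0.73), Ndufc1 (0.66) and Atp5c1 (0.55). Both lists hold genes of several complexes, so subunits of 1 complex departed in opposite directions. Cox8a had 122, 142, 41.6 and 112 CPM in anti-ITGAV on fibronectin, whereas another small complex IV subunit, Cox7b, had 70.91, 75.04, 108.81 and 69.01 CPM. Library 3 was the lowest for Cox8a and the highest for Cox7b.

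**Figure D4:**
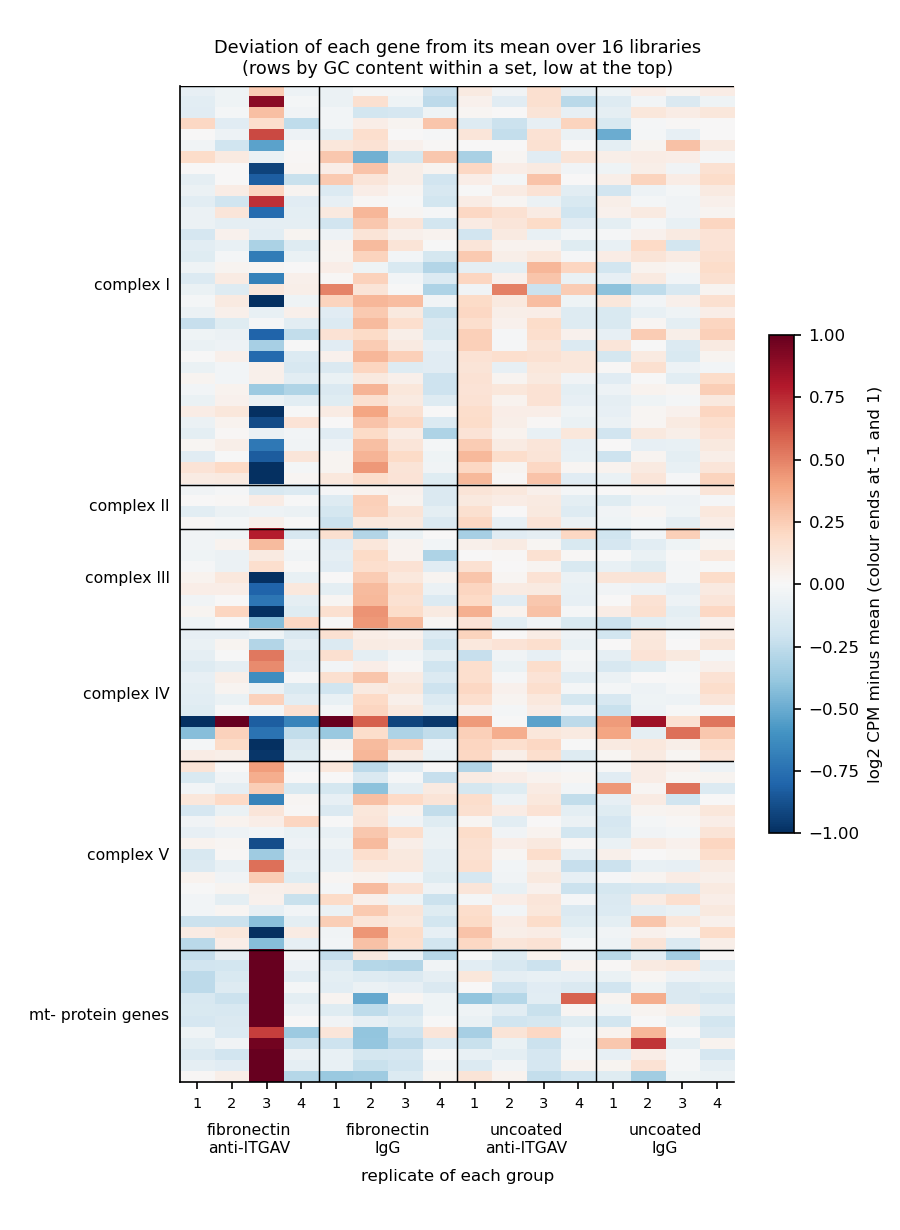
Log2 CPM of each member and mt- protein gene minus its mean over 16 libraries (colour, cut at -1 and 1), with rows ordered by GC content within each complex and columns by group and replicate. Replicate 3 of anti-ITGAV on fibronectin is dark blue in many GC-rich members and dark red in the mt- genes, whose median deviation there is 1.36.

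The deviations in library 3 went with the GC content of the transcript. Among the members with the lowest GC content (37.0% to 48.5%) the median deviation was 0.193, in the middle group (48.6% to 52.5%) -0.070, and in the highest (52.8% to 63.3%) -0.732. Across the 78 members, deviation and GC content had a Spearman rho of -0.61 in library 3 and of 0.64 in library 2 of IgG on fibronectin, in which 37 members (47.4%) and 14.6% of all genes tested were at their highest. Across libraries, the members' median deviation followed the library's GC trend over all genes with a Pearson r of 0.85 over 16 libraries and 0.87 over the 15 others; these points share the library's depth and scaling. The members' GC content also went with their change for the antibody on fibronectin (rho -0.59 across 78 members, -0.33 without library 3). In a fit with each library's GC trend removed, the medians were -0.075 for the antibody on fibronectin, 0.012 on uncoated dishes, -0.090 for fibronectin under anti-ITGAV and 0.002 under IgG, with 0 members called in each.

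**Figure D5:**
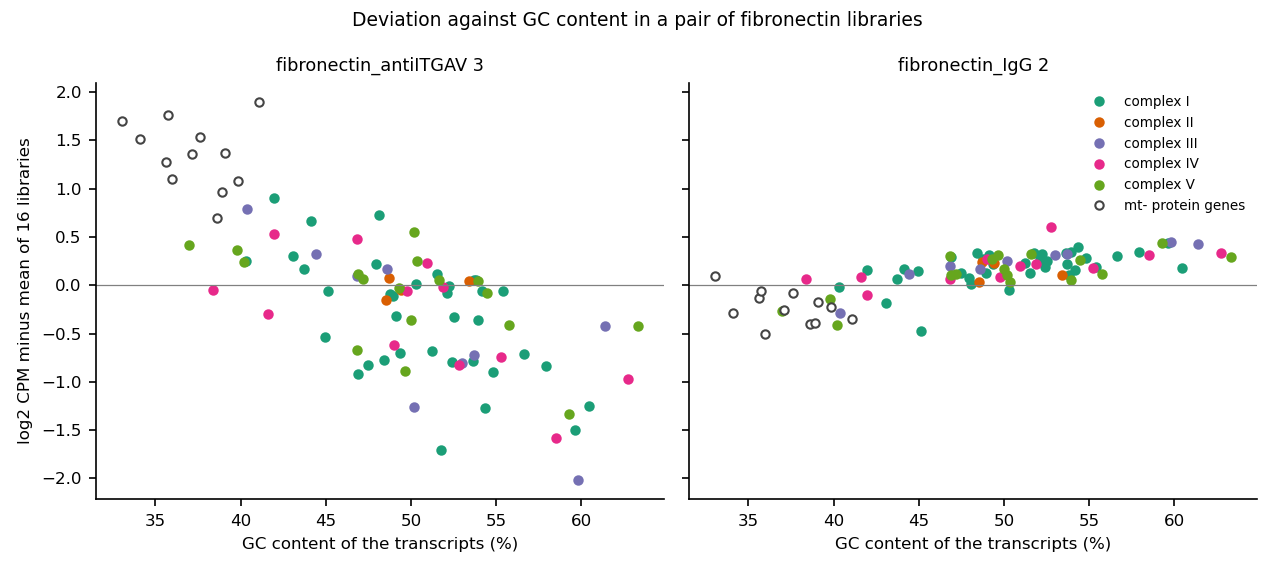
Log2 CPM minus the mean over 16 libraries against the GC content of the transcripts (percent), for each member by complex and for the mt- protein genes, in a pair of libraries. Points fall with GC content in replicate 3 of anti-ITGAV on fibronectin (rho -0.61 over the members) and climb with it in replicate 2 of IgG on fibronectin (rho 0.64).

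Within groups the members varied together. After the group means were removed, the median Pearson r over the 3003 pairs of members was 0.299 over 16 libraries and 0.575 over the 15 without library 3, and the mean r was 0.417 over 15, against 0.00456 over all pairs of genes tested. These points share each library's depth, scaling and GC trend, so the values are a description. The 4 complex II genes had the highest median r over 15 libraries, 0.690, and complex V the lowest, 0.408. For the mt- genes the median r was 0.900 with library 3 and 0.218 without it.

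Other genes of the pathway gave few calls, all of them for fibronectin and all higher on it. Over all genes tested, edgeR called 3.79% for fibronectin under IgG and 5.66% under anti-ITGAV, in either direction. A call of 1 gene in a list of 18 to 46 is near or below those shares. Cycs, the cytochrome c that shuttles between complexes III and IV, averaged 65.2 ± 12.5 CPM on fibronectin and 44.9 ± 4.98 CPM on uncoated dishes under anti-ITGAV (SD, n = 4 each; log2 change 0.54 ± 0.12, edgeR adjusted p = 0.0125). Library 3 was at 83.7 CPM, and without it the log2 change was 0.40 (edgeR adjusted p = 0.0106). Its call was lost with the GC trend removed, where the log2 change was 0.20. Under IgG the change of Cycs was 0.36 ± 0.12 and was not called (edgeR adjusted p = 0.114), but it was called in 3 of 32 alternatives, among them the fit without library 3 (edgeR adjusted p = 0.00895). Of 46 assembly factors tested, Cox18, an insertase for complex IV, rose under IgG (0.64 ± 0.16, edgeR adjusted p = 0.031) and Ndufaf4, a complex I assembly factor, rose under anti-ITGAV (1.12 ± 0.21, or 0.85 without library 3). The call of Cox18 was lost in 6 fits that each left out 1 library (replicates 2, 3 and 4 of IgG on fibronectin, and 1, 2 and 3 of IgG on uncoated dishes), with an adjusted p of up to 0.123 by edgeR. Of 20 genes of mitochondrial biogenesis tested, Pprc1, a coactivator related to PGC-1α, rose on fibronectin under both antibodies (0.71 ± 0.10 under IgG and 0.72 ± 0.10 under anti-ITGAV), and 0 others were called. Ppargc1b, which encodes PGC-1β, had log2 changes on fibronectin of 0.49 ± 0.24 under IgG and -0.12 ± 0.24 under anti-ITGAV, and Tfam, the mitochondrial transcription factor, of -0.01 ± 0.13 under IgG and 0.16 ± 0.13 under anti-ITGAV, with 0 of these called. Ppargc1a, with a mean count of 1.69, was not tested. Of 18 genes of the citric acid cycle, Idh3a rose under anti-ITGAV (0.56 ± 0.12, or 0.44 without library 3). Of 77 mitochondrial ribosomal protein genes, 0 were called in any comparison, with medians of 0.108 for fibronectin under IgG and -0.026 under anti-ITGAV. Without library 3, which is in neither IgG group but adds to the common spread, 5 were called higher under IgG. The share of all genes called in that fit is not given here.

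Of 20 glycolytic genes, a list written with knowledge of earlier results of these data, 4 were called higher on fibronectin under IgG and 0 lower, with a list median of 0.343. They were the glucose transporter Slc2a1 (0.87 ± 0.16), hexokinase Hk2 (0.52 ± 0.11), phosphofructokinase Pfkp (0.48 ± 0.09) and lactate dehydrogenase Ldha (0.47 ± 0.10). Slc2a1 averaged 68.0 ± 4.87 CPM on fibronectin and 37.2 ± 2.18 CPM on uncoated dishes. Over all genes tested, edgeR called 3.79% for fibronectin under IgG and 5.66% under anti-ITGAV, in either direction. Under anti-ITGAV the list median was 0.118 and Slc2a1 alone was called (0.58 ± 0.16). Hk2 narrowly missed, with a log2 change of 0.38 (edgeR adjusted p = 0.0502), and was called in 11 of 32 alternatives, Ldha in 4 and Pfkp in 3. Without library 3, 11 of the 20 were called under IgG, with the median unchanged at 0.343, and 4 under anti-ITGAV (median 0.200). Library 3 is in neither IgG group but adds to the common spread. The share of all genes called without it is not given here, so a general gain in calls cannot be told apart. The call of Slc2a1 under anti-ITGAV was lost in 10 of the 16 fits that left out a library. Its log2 change lay between 0.49 and 0.80 over all alternatives, with an edgeR adjusted p of up to 0.174; the 6 libraries without which it held were replicate 4 of IgG on uncoated dishes, replicate 1 of anti-ITGAV on uncoated dishes, replicates 1, 2 and 4 of IgG on fibronectin and replicate 3 of anti-ITGAV on fibronectin. Under IgG, Hk2 lost its call without replicate 1 or 3 of IgG on uncoated dishes, and Ldha without replicate 1, 2 or 3 of that group or replicate 3 of IgG on fibronectin, with an adjusted p of up to 0.0715 by edgeR. The interaction test called 0 of the 20, so a difference between the antibodies was not shown. The members' medians in the same comparisons were 0.018 and -0.115.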

How the data were processed

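RNA sequencing of bulk macrophage cultures was deposited as 1 table of counts and 1 of FPKM, both with 1 column per library. The authors' counts are whole numbers per gene, not normalized, and the deposited FPKM equal those counts over the listed gene length, times a scale fixed for each library, as checked on the values. Per the submitters' processing notes, HISAT2, StringTie and featureCounts were used with the builds mm10 and GRCm38.p6; how strand and reads with several matches were handled is not stated in any source used here. The tables hold 0 columns of other samples and 0 rows that name no gene.

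Counts of the 16 libraries, grouped by their labels, were tested with edgeR 4.0.16 in R 4.3.3 (filterByExpr, minimum count 10; TMM scaling; 1 mean per group; robust quasi-likelihood fit). The p-values of all 15469 tested genes were adjusted together by the Benjamini-Hochberg method, and a gene was called below 0.05. The comparisons were the antibody on each surface, fibronectin under each antibody, and their interaction. CPM use TMM-scaled library totals, except those of the cell type markers, which use plain totals. Deviations use log2 CPM with a prior count of 2. Shares of counts were compared by exact permutation tests. DESeq2 1.42.0, limma 3.58.1 (voom, and log2 FPKM), other scalings and filters, GC and length trends (lowess span 0.3; GC known for 15457 genes), a replicate block and leaving out each library were the alternatives. Promoter windows came from RefSeq (GRCm38.p6); near copies were found with blastn 2.17.0 (97% identity, 200 bases) on GENCODE transcripts. Tests were checked on simulated counts. Python 3.11.15 with pandas 2.3.3, numpy 2.4.6, scipy 1.17.1 and matplotlib 3.10.9 was used.

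The members and all gene lists were chosen with earlier results of these data known. Named genes are the 2 highest and 2 lowest log2 changes in each comparison of 2 groups, the highest and lowest level in each complex, catalytic subunits, isoform sets, and called genes of the other lists (at most 4 per list and comparison); members named for an unadjusted p under 0.05 or for their deviation in library 3 were added after their values were seen. No 2 libraries of a group agreed within counting noise (chi-square over its degrees of freedom 5.39 to 204.5).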

Additional observations from a re-analysis of the deposited data

Results flagged for a closer look

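In 34 of 248 groups of 4 libraries, 1 library lay far from the other 3 (the gap to its nearest neighbour over the range passed Dixon's 95% critical value). For independent groups chance flags about 1 in 20, or 12.4 of 248. These groups are not independent, since the mt- genes move together and the mt- summary values are built from them. Some members, such as Ndufa2, Ndufv2 and Uqcrb, were named for changes that library 3 carried. The 12.4 is therefore only a guide. Library 3 of anti-ITGAV on fibronectin accounted for 24 of the 34. Among the members it was high for Cox6b1 (155 CPM), Cox7b (109 CPM), Ndufa4 (98.1 CPM), Ndufv2 (141 CPM) and Uqcrb (67.3 CPM), and low for Ndufa2 (16.04 CPM), Ndufv1 (33.96 CPM) and Uqcr10 (26.1 CPM). Outside the members it was low for Cox4i1 (174 CPM) and high for Cycs (83.7 CPM). Of the mt- genes it was high for mt-Atp6 (47.8 CPM), mt-Co1 (14249 CPM), mt-Co3 (45.99 CPM), mt-Cytb (4899 CPM), mt-Nd1 (5072 CPM), mt-Nd2 (2975 CPM), mt-Nd3 (28.04 CPM), mt-Nd4 (2562 CPM), mt-Nd4l (10.3 CPM), mt-Nd5 (4252 CPM) and mt-Nd6 (839 CPM). The median deviation of the mt- genes (1.36 on the log2 scale), their share of counts (3.46%) and their ratio to the members (5.32) stood apart in the same library.

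The other such values were spread over 7 libraries. Atp5b (905 CPM) and Cox7a2l (154 CPM) were high in replicate 4 of IgG on uncoated dishes, Ndufb2 (3.23 CPM) was low in replicate 1 and mt-Nd4 (1071 CPM) high in replicate 2 of that group. In anti-ITGAV on uncoated dishes, Sdhc (139 CPM) was low in replicate 4 and mt-Nd4 (1142 CPM) high in replicate 1. Replicate 2 of anti-ITGAV on fibronectin was high for Cox6a2 (1.09 CPM) and low for Cox18 (6.63 CPM), and replicate 2 of IgG on fibronectin was low for Idh3a (44.01 CPM) and mt-Atp6 (15.6 CPM).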

How the results depend on the processing

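Over 33 settings, 32 of them planned, 0 members were called in any comparison, except that 1 member, Cyc1, was called for fibronectin under IgG with the GC trend removed and library 3 of anti-ITGAV on fibronectin left out, a setting chosen after the data were seen. Leaving out each library in turn gave member medians of 0.00682 to 0.0829 for the antibody on uncoated dishes, -0.146 to -0.0668 for the antibody on fibronectin, -0.0289 to 0.0562 for fibronectin under IgG, -0.153 to -0.0919 for fibronectin under anti-ITGAV and -0.195 to -0.0798 for the interaction. The medians of the mt- genes depended on library 3. For the antibody on fibronectin they were -0.0134 to 0.696 with 1 library left out, 0.00749 with voom quality weights, 0.152 with the GC trend removed, 0.137 with the GC trend and a replicate block, and -0.101 with the GC trend and without library 3. For fibronectin under anti-ITGAV they were -0.0343 to 0.649, 0.0224, -0.0629, -0.0818 and -0.281 in the same order of settings, and for the interaction 0.00337 to 0.797, 0.0674, -0.0884, -0.100 and -0.323. Leaving the mt- genes out of the table gives no such median. Of 8987 alternative values of named genes, 35 lost and 30 gained a call, and 0 called values changed sign, while 607 values that were not called did. Depth limits the least counted members, such as Cox6a2 with a mean count of 18.9 and an SE of 0.57 on uncoated dishes; counting noise and the spread between libraries were not separated.

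Correlations between same-numbered libraries of different groups ran from -0.301 to 0.277, and between differently numbered ones from -0.335 to 0.307. These values carry each library's GC trend, so they cannot decide whether replicate numbers paired the libraries. With the replicate block 0 members were called, and the member medians were 0.040 for the antibody on uncoated dishes, -0.093 for the antibody on fibronectin, 0.017 for fibronectin under IgG, -0.132 for fibronectin under anti-ITGAV and -0.140 for the interaction.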

Other observations

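Several mt- genes have a nuclear copy on chromosome 1, at least 97% identical over 200 bases, that holds counts of its own. Against the mt- gene, the copy had 146% of the count for mt-Atp6 (Gm10925), 86.2% for mt-Co3 (Gm28437), 76.7% for mt-Nd4l (Gm10222), 76.4% for mt-Co2 (Gm28661) and 27.4% for mt-Nd3 (Gm28438). The abundant mt-Co1, with a mean count of 241589, had copies at 0.338% and less.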
